A study of Mus musculus with 10 samples.

Results

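The mitochondrial respiratory chain was followed in mouse nephron progenitors through the transcripts of its nucleus-encoded subunits. Members were the genes whose name on the array starts with Nduf and a subunit letter (a, b, c, s or v), with Uqcr, with Cox and a number from 4 to 8, or with Atp5, together with Sdha, Sdhb, Sdhc, Sdhd, Cycs and Cyc1. The rule took 87 of 34607 gene names, read by 128 of 55681 probes. They were 35 genes of complex I, 4 of complex II, 9 of complex III, 20 of complex IV and 15 of complex V, with Cycs, the mobile electron carrier cytochrome c, between complexes III and IV. The other 3 names carry the Atp5 prefix without being structural subunits: Atp5s and Atp5sl, now called Dmac2l and Dmac2, and the pseudogene Atp5c1-ps. To be tested, a gene needed a probe whose signal stood well above background in both samples of some group, which held for 85 members and 26251 genes in all. Cox7b2 and Cox8c, members with known expression in testis, did not reach this and are given no difference.

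Expression was measured on 10 single-colour Agilent arrays, 2 for each of 5 groups. All cells came from Six2-GFP transgenic mice on a C57BL6J/ICR background, in which GFP marks cells that use Six2, a transcription factor that keeps nephron progenitors undifferentiated. GFP-positive cells sorted from E11.5 embryos are called E11.5 progenitors, and those sorted at birth (P0) are called P0 progenitors. GFP-negative cells from newborns are called P0 non-progenitors. For the 8-day and 19-day cultures, conditioned media were used to keep GFP-positive E11.5 cells for those times. A second sort after culture is not mentioned in the labels, nor is whether the 2 samples of a group came from separate litters or cultures, so p-values measure the spread between these samples, which may be technical. Samples at birth are named P0 here, after their labels, although E19.5 stands in the deposited names.

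The chain moves electrons from NADH through complex I, or from succinate through complex II, to complex III, cytochrome c and complex IV, where oxygen is reduced. Complexes I, III and IV pump protons across the inner mitochondrial membrane, and complex V, the ATP synthase, uses the gradient to make ATP. Most subunits are encoded in the nucleus and some in mitochondrial DNA, and complex IV has paired isoforms that differ between tissues. In the kidney, proximal tubule cells depend heavily on oxidative phosphorylation, whereas nephron progenitors are known to rely more on glycolysis.

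Promoters of nuclear subunit genes are known for sites of NRF1, ETS family members (GABP) and YY1. RefSeq promoter windows of GRCm38.p6, from 250 bases before to 50 bases after a start, were matched by symbol for 70 of the 87 members. The letters GCGCANGCG, searched for NRF1 on both strands, stood in a window of 21 of these 70 members (30.0%), against 7.03% of 27025 genes with windows of the same length. The letters CCGGAAG (ETS) stood in 22.9% of members and 9.93% of all genes, and AAGATGGCG (YY1) in 11.4% and 1.64%. The letters ACGTG, the core of the hypoxia response element, stood in 28.6% and 21.8%. The 4 motifs do not contain one another. By complex, the NRF1 letters were in 7 of 14 genes of complex V, 2 of 3 of complex II, 2 of 5 of complex III, 8 of 31 of complex I and 1 of 14 of complex IV. The sequences are the 250 bases before the start for the 3 members that fell most in 19-day culture among those with an NRF1 match before the start, and for Cox6b2, which rose in both cultures and has none. Capitals mark the NRF1 letters on either strand.
Cycs (chr6:50566570-50566819, minus strand): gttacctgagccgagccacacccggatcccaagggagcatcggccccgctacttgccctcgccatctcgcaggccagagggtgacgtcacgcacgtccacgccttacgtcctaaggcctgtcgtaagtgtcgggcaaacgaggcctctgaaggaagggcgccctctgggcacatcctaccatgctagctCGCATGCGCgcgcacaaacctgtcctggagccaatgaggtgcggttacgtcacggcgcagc
Sdha (chr13:74350241-74350490, minus strand): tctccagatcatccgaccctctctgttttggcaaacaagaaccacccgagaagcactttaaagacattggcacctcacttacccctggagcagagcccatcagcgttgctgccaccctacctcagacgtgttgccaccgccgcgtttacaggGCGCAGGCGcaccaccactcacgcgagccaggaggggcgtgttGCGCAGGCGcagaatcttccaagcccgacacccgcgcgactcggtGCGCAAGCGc
Atp5c1, window 2 of 2 (chr2:10080433-10080682, minus strand): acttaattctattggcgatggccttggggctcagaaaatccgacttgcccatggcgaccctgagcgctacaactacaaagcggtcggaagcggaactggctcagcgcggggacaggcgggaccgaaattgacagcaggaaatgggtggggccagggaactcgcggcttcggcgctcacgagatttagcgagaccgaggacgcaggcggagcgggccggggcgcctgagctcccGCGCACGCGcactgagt
Cox6b2 (chr7:4753095-4753344, minus strand): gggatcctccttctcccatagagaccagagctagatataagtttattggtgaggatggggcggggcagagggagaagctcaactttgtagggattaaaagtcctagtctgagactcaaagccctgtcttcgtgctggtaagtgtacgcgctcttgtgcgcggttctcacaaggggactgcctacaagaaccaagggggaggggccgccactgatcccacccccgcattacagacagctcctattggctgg
The match began 61 bases before the start in Cycs and 17 in Atp5c1, and Sdha held 3 matches, at 98, 55 and 10 bases before the start. Cox5a, Uqcrfs1 and Ndufv1 fell more at 19 days than Sdha and Atp5c1, and their windows hold no NRF1 letters. Ndufa4l2 had no window. Over all windows, the NRF1 letters stood in 7 of 18 members lower at 19 days and in 14 of 52 other members, and a link with the falls was not tested. A match is a description of letters, and binding was not measured.

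Values are log2 intensities from which each array's 75th percentile was subtracted, so that 0 is that percentile, and they are compared between arrays for 1 probe at a time. Between 60.4% and 69.8% of the 59305 non-control spots per array were well above background, the 75th percentile lay between 220.4 and 340.6 intensity units, and no spot was saturated. Six2 itself was at 4.70 and 4.82 in E11.5 progenitors, 4.27 and 4.11 in P0 progenitors, -2.26 and -4.55 in P0 non-progenitors, 5.21 and 4.61 in 8-day culture and 1.06 and 2.32 in 19-day culture. The progenitor label of the 19-day culture therefore rests on its origin: 6 of 7 progenitor markers were lower there than at E11.5. In 8-day culture 1 of 7 was called lower and 0 higher, but the loss was uneven. Pax2 read -1.4 and -1.04 there, against 4.56 and 4.21 at E11.5, and Sall1 1.71 and 2.09, against 3.85 and 4.36. Cited1 read 0.56 and 1.68, against 3 and 3.64. Six2, Osr1, Eya1 and Wt1 overlapped between the 8-day and E11.5 arrays. In bulk samples, fewer cells of a type and less RNA per cell cannot be told apart. Members were measured more tightly than most genes: 83 of 87 were well above background on every array, and the median standard error of a difference was 0.17 over members and 0.44 over all genes tested. The root mean square difference between replicates over members ran from 0.244 in 19-day culture to 0.448 in 8-day culture.

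Most members were called in no comparison. With limma and a Benjamini-Hochberg adjusted p of 0.05 over all genes tested, 32 of 85 were called in at least 1 of 5 comparisons and 53 in none, which at 2 arrays a group does not show that they were unchanged. In P0 progenitors against P0 non-progenitors, 2 members were higher and 2 lower, that is 2.35% each way, against 4.23% and 4.15% of all genes. In P0 against E11.5 progenitors, 4 were higher and 1 lower (4.71% and 1.18%, against 2.03% and 1.92% of all genes). In 8-day culture against E11.5 progenitors, 2 were higher and 2 lower (2.35% each, against 2.76% and 2.04%). In 19-day culture against E11.5 progenitors, 4 were higher and 21 lower (4.71% and 24.7%, against 7.23% and 9.59%). In 19-day against 8-day culture none of the 85 members was higher and 8 were lower (9.41% lower, against 2.67% of all genes higher and 5.4% lower). At an unadjusted p under 0.05 in limma, 1 member was higher and 19 lower there. The counts at 4 of the 5 comparisons were thus small, and the 19-day culture held most of the calls.

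**Figure D1:**
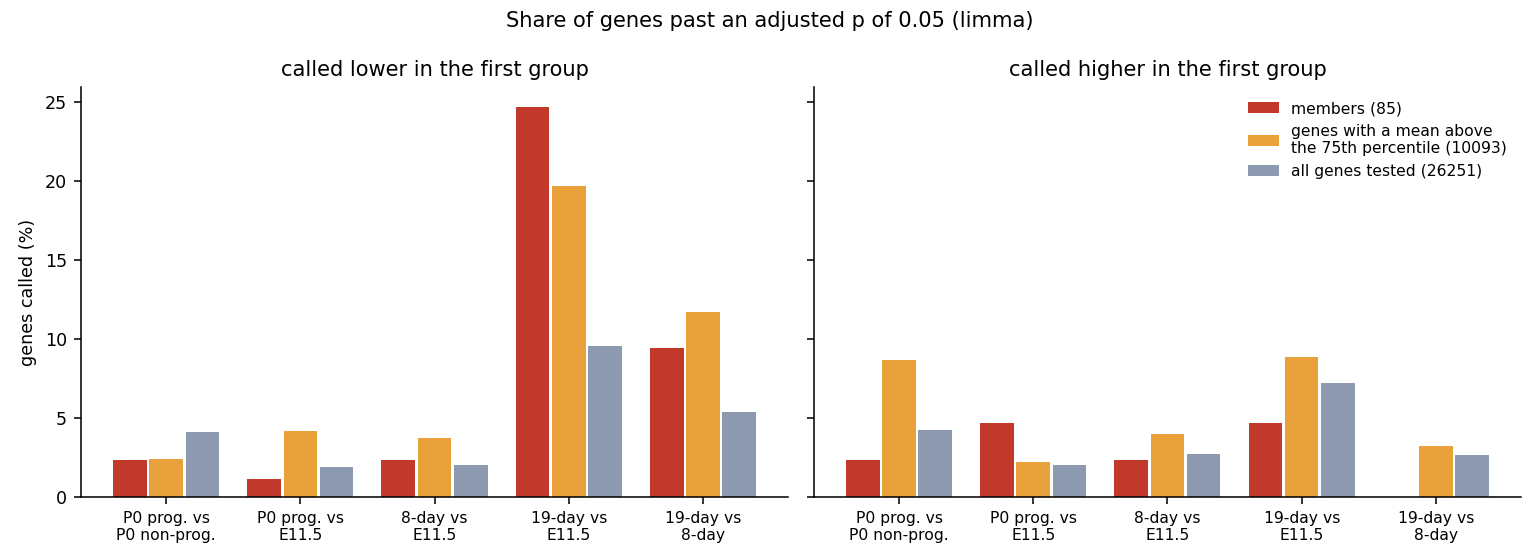
Bars give the percentage of genes called lower (left) and higher (right) in the first-named group of each comparison, with limma at an adjusted p of 0.05, for the 85 members, for 10093 genes whose mean lay above the 75th percentile, and for all 26251 genes tested. The tallest bars are the lower calls in 19-day culture against E11.5 progenitors, 24.7% of members beside 19.7% of bright genes and 9.59% of all genes.

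Because members are bright, they were also set beside the 10093 genes whose mean lay above the 75th percentile, a limit chosen after seeing the data. In 19-day culture against E11.5 progenitors 19.7% of these bright genes were lower, against 24.7% of members, and their median difference was -0.22, against -0.28 over members. In 19-day against 8-day culture 11.7% of the bright genes were lower, against 9.41% of members, with medians of -0.18 and -0.20. The lower level of members in 19-day culture was therefore close to that of bright genes in general. The median over all genes was 0.01 and -0.01 in these 2 comparisons, and 0.10, -0.12 and 0.02 in the 2 P0 comparisons and at 8 days, where the members' medians were -0.08, 0.05 and -0.05. There the bright genes had medians of 0.21, -0.15 and -0.02, so in both P0 comparisons members and bright genes had opposite signs. Of the bright genes, 8.7%, 2.24% and 4.03% were called higher and 2.41%, 4.2% and 3.76% lower, in the same order.

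The size and even the split of the calls depended on how arrays were scaled. With quantile normalization, 7 members were lower and 9 higher in 19-day culture against E11.5 progenitors, the members' median was -0.05, and 12.3% of bright genes were lower and 11.6% higher. With normexp background correction, 17 were lower and 6 higher with a median of -0.21, while the median of all genes itself moved to -0.17. The 7 members lower under all 3 scalings were Cox5a, Uqcrc1, Cycs, Uqcrfs1, Uqcrc2, Atp5pb and Atp5a1, and the 4 higher members, Ndufa4l2, Cox6b2, Ndufv3 and Ndufa3, were called under all 3.

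**Figure D2:**
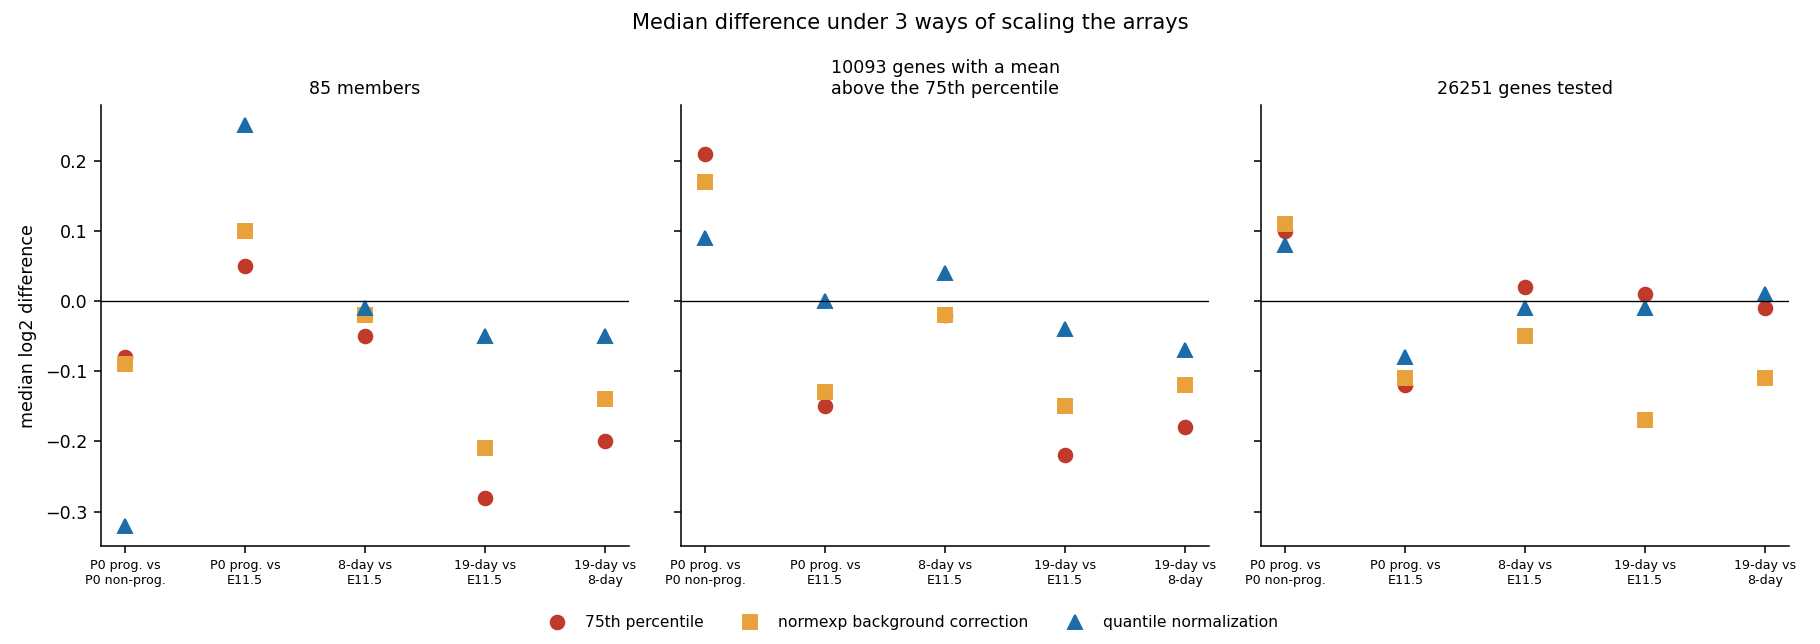
Each point is the median log2 difference of a comparison, for the 85 members (left), the 10093 bright genes (middle) and all genes tested (right), after scaling to the 75th percentile, after normexp background correction or after quantile normalization. The members' median in 19-day culture against E11.5 progenitors lies at -0.28, -0.21 and -0.05 under the 3 scalings.

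The called members with the widest changes were tissue-restricted genes of complex IV. Ndufa4l2 encodes a paralog of the complex IV subunit Ndufa4 and is known as a hypoxia-inducible gene. Its probe (mm9, chr10:126954149-126954208) read -3.26 and -3.09 in E11.5 progenitors and -3.18 and -3.12 in P0 progenitors. It read -1.10 and -0.35 in P0 non-progenitors, 1.14 and -0.02 in 8-day culture and -0.36 and -0.38 in 19-day culture. The freshly sorted progenitors of both ages were low and close together, and the arrays of the other 3 groups all lay above them. In limma, Ndufa4l2 was 13.3-fold higher in 8-day culture than at E11.5 (log2 3.73 ± 0.44 SE, adjusted p = 0.00784, n = 2 arrays a group) and 6.98-fold higher in 19-day culture (2.80 ± 0.44, adjusted p = 0.0059). At birth it was 5.38-fold lower in progenitors than in non-progenitors (-2.43 ± 0.44, adjusted p = 0.0171). Background correction with normexp kept the 2 culture calls at 2.15 and 1.41 and ended the P0 call at -1.21, with an adjusted p of 0.074 in limma. The P0 call was also lost without either P0 progenitor array and without P0 non-progenitor replicate 2. Its ubiquitous counterpart Ndufa4 was not called in any comparison and stayed between 4.88 and 5.68 over the 10 arrays.

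Cox6b2 encodes the testis isoform of the subunit that joins the 2 monomers of complex IV. Its probe (mm9, chr7:4703488-4703547) read 1.66 and 2.84 in E11.5 progenitors, 3.54 and 3.69 in P0 progenitors and 3.58 and 3.13 in P0 non-progenitors. It read 4.72 and 4.31 in 8-day culture and 5.29 and 4.74 in 19-day culture. Both cultures lay above all freshly sorted samples, and the E11.5 arrays, which differed by more than 1 log2 unit, were the lowest. It was 4.81-fold higher at 8 days (2.26 ± 0.39, limma adjusted p = 0.0253) and 6.80-fold higher at 19 days (2.77 ± 0.39, limma adjusted p = 0.00407) than at E11.5. The 8-day call was lost without either 8-day array, and with slide as a block both were lost (limma adjusted p = 0.0627 and 0.0558). P0 against E11.5 progenitors gave 1.37 ± 0.39, which did not pass (limma adjusted p = 0.112). The common isoform Cox6b1 was not called in any comparison and ran from 2.78 to 3.55.

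The heart and skeletal muscle isoforms Cox6a2, Cox7a1 and Cox8b had their highest group mean in 8-day culture, for Cox7a1 and Cox8b with overlap between groups. Cox6a2 read -0.96 and 0.63 there and between -3.17 and -2.18 on the other 8 arrays. It fell by 2.34 ± 0.52 (5.05-fold) from 8 to 19 days (limma adjusted p = 0.0356), while its difference of 2.19 ± 0.52 at 8 days against E11.5 did not pass (limma adjusted p = 0.0585). The fall was lost without 8-day replicate 2 and without either 19-day array. Cox7a1 read 1.44 and -0.11 at 8 days, 0.34 and 0.73 at 19 days, 0.58 and 0.54 in P0 non-progenitors, and between -1.80 and -0.91 in the freshly sorted progenitors. At birth it was 4.27-fold lower in progenitors than in non-progenitors (-2.10 ± 0.51, limma adjusted p = 0.0465), a call lost without any one of the 4 arrays, and its culture differences of 1.83 and 1.70 did not pass (limma adjusted p = 0.0895 and 0.06). Cox8b read -2.55 and -3.96 at 8 days and was not well above background on either array of the P0 groups. Cox4i2, the isoform known for its response to low oxygen, read 0.08 and -0.29 at 8 days and between -2.54 and -1.17 elsewhere, and its difference of 1.68 ± 0.47 at 8 days did not pass (limma adjusted p = 0.0956). Their common counterparts Cox6a1, Cox7a2 and Cox8a were not called in any comparison.

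**Figure D3:**
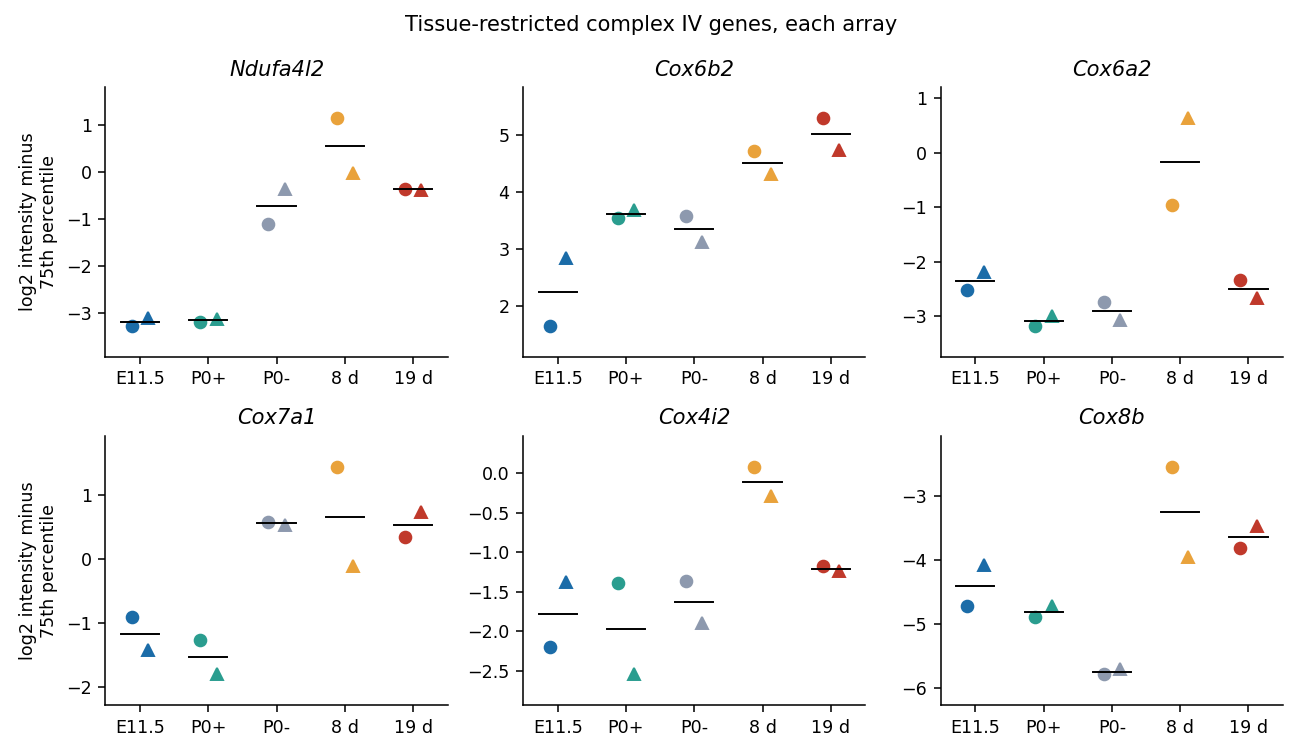
Each panel shows 1 complex IV gene as log2 intensity minus the array's 75th percentile, with circles for replicate 1, triangles for replicate 2 and a line at the group mean. E11.5 and P0+ are the freshly sorted progenitors, P0- the GFP-negative cells at birth, and 8 d and 19 d the cultures. Ndufa4l2 and Cox6b2 are higher in both cultures than at E11.5, and Cox6a2 and Cox4i2 stand out at 8 days.

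Markers of other cells were read in the same samples, and not all of them followed these isoforms. The mean of 7 muscle markers was -0.20 and 0.30 in 8-day culture, -2.64 and -2.26 in 19-day culture and between -3.88 and -3.04 in the freshly sorted groups. In 8-day culture 6 of the 7 were above background on each array, with Myl1 at 3.03 and 3.65 and Myh3 at 2.08 and 2.15, and Ckm was above background on no array. Of the 6 muscle markers tested, 2 were higher at 8 days than at E11.5 in limma and 0 were lower. Acta1 read -1.36 and -0.32 at 8 days, 0.70 and -0.80 at 19 days and 1.24 and 0.80 in P0 non-progenitors. Des read 3.00 and 2.81 at 8 days, 2.05 and 3.28 at 19 days and 1.86 and 2.41 at E11.5. The mean of 5 stroma markers was 3.08 on both P0 non-progenitor arrays, 1.95 and 1.24 in 19-day culture, -1.30 and -0.83 in 8-day culture and between -1.91 and -1.31 in the sorted progenitors. In 8-day culture 3 of these 5 were higher than at E11.5 and 1 was lower. The counts were the same in 19-day culture, and 3 of 5 were higher and 0 lower at 19 than at 8 days. Of 4 red cell markers tested, 3 were lower and 0 higher in each culture than at E11.5. The part of any of these cells in the member results was not tested.

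In 19-day culture the lower members came from every complex, and the shares were largest in complexes V and II. Complex V had 8 of 15 tested genes lower, complex III 4 of 9, complex II 2 of 4, complex I 4 of 35 and complex IV 2 of 18, together with Cycs. The median difference was -0.48 in complex V, -0.53 in complex III, -0.49 in complex II, -0.14 in complex I and -0.04 in complex IV. With quantile normalization these medians were -0.15, -0.32, -0.33, 0.06 and 0.24, so that complexes I and IV changed sign, and the lower calls were 2 of 15, 3 of 9, 0 of 4, 0 of 35 and 1 of 18. No difference between complexes was tested.

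In complex III, Uqcrfs1, the Rieske iron-sulfur protein, read 5.25 and 5.12 in E11.5 progenitors, 5.09 and 5.01 in 8-day culture and 4.11 and 4.18 in 19-day culture. Its 19-day arrays lay below all 8 others, whose lowest value was 4.70. It fell by 1.04 ± 0.11 against E11.5 (2.06-fold, limma adjusted p = 0.00141) and by 0.91 ± 0.11 against 8 days (limma adjusted p = 0.00498), and both calls held without each array in turn and with slide as a block. The core proteins Uqcrc1 and Uqcrc2 fell by 1.06 ± 0.22 and 0.98 ± 0.19 against E11.5, with limma adjusted p of 0.0157 and 0.0127. Uqcrc1 read 2.64 and 3.02 at E11.5 and 1.64 and 1.89 at 19 days, and Uqcrc2 read 5.04 and 4.79 against 3.87 and 4.0. Cyc1, the cytochrome c1 subunit, fell by 1.06 ± 0.25 (limma adjusted p = 0.027), but this call was lost without any one of the 4 arrays compared. The hinge protein Uqcrh fell by 0.65 ± 0.14 from 8 to 19 days (limma adjusted p = 0.0307), and Uqcrc2 fell by 0.79 ± 0.19 over the same interval (limma adjusted p = 0.0467).

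Cycs read 3.14 and 3.12 at E11.5, 2.77 and 2.60 at 8 days and 1.94 and 2.20 at 19 days. The 3 groups did not overlap, and the 19-day arrays were the lowest of all 10. It was 2.08-fold lower at 19 days than at E11.5 (-1.06 ± 0.16, limma adjusted p = 0.00572). The call held without each array in turn and was lost with slide as a block (-0.89, limma adjusted p = 0.124), and a second probe above background on all arrays gave -1.39.

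In complex IV, Cox5a, a nuclear subunit that binds outside the catalytic core, read 4.70 and 4.40 at E11.5, 3.69 and 3.70 in P0 progenitors, 3.32 and 3.49 at 8 days and 3.62 and 3.15 at 19 days. The E11.5 arrays were the highest of the 10. It fell by 1.14 ± 0.20 at 8 days (limma adjusted p = 0.0244) and by 1.17 ± 0.20 at 19 days (limma adjusted p = 0.00756), and the 8-day call was lost without E11.5 replicate 1 and without either 8-day array. Cox7a2l, which is known less as a subunit than as a factor that joins complexes III and IV into supercomplexes, had the closest replicates. It read 7.08 and 7.11 at E11.5, 7.53 and 7.55 in P0 progenitors, 7.04 on both P0 non-progenitor arrays, 7.28 and 7.29 at 8 days and 6.56 on both 19-day arrays. Its level was thus ordered from P0 progenitors through 8-day culture and E11.5 progenitors to 19-day culture, with P0 non-progenitors just below E11.5. It was called in 4 of 5 comparisons: 0.50 ± 0.06 in P0 progenitors against non-progenitors (limma adjusted p = 0.00333), 0.45 ± 0.06 against E11.5 (0.0105), -0.53 ± 0.06 at 19 days against E11.5 (0.00146) and -0.73 ± 0.06 at 19 against 8 days (0.00167). All 3 of its probes had the same sign in each of these 4. With quantile normalization the P0 difference against non-progenitors and the 19-day difference against E11.5 shrank to 0.14 and -0.17 and were no longer called (limma adjusted p = 0.278 and 0.132).

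In complex I the lower members at 19 days were Ndufv1, which carries the NADH-binding site, and the accessory subunits Ndufb5, Ndufc2 and Ndufb8. Ndufv1 read 3.14 and 3.51 at E11.5, 2.20 and 2.66 at 8 days and 2.34 and 2.38 at 19 days. It fell by 0.97 ± 0.22 at 19 days (limma adjusted p = 0.0225), and its 8-day difference of -0.90 ± 0.22 did not pass (limma adjusted p = 0.0619). Ndufb5 fell by 0.80 ± 0.17 against E11.5 (limma adjusted p = 0.0198) and by 0.89 ± 0.17 against 8 days (limma adjusted p = 0.0225), while its second probe gave 0.14 and -0.64. Ndufs1, the largest subunit, gave -0.80 ± 0.29 at 19 days and did not pass (limma adjusted p = 0.106). The accessory subunits Ndufv3 and Ndufa3 went the other way. Ndufv3 read 2.79 and 3.37 at E11.5, 3.77 and 3.83 at 8 days and 4.57 and 4.80 at 19 days, its 19-day arrays being the highest of the 10, and it was 3.04-fold higher at 19 days than at E11.5 (1.61 ± 0.26, limma adjusted p = 0.00637). Its other 2 probes gave 1.03 and 1.21. Ndufa3 was higher by 0.95 ± 0.22 (limma adjusted p = 0.025), but its second probe gave -0.29.

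In complex II, Sdha, the flavoprotein that oxidises succinate, read 3.23 and 3.27 at E11.5, 2.39 and 2.32 at 8 days and 2.80 and 2.33 at 19 days, so both cultures lay below every freshly sorted array. It fell by 0.89 ± 0.19 at 8 days (limma adjusted p = 0.0451) and by 0.69 ± 0.19 at 19 days (limma adjusted p = 0.0491). The first call was lost without any one of the 4 arrays and the second without either E11.5 array and without 19-day replicate 2. Sdhb, the iron-sulfur subunit, fell by 0.64 ± 0.18 at 19 days (limma adjusted p = 0.0466), also lost without any one of the 4 arrays. The membrane anchors Sdhc and Sdhd were not called in any comparison.

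In complex V, Atp5a1, the alpha subunit of the catalytic head, read 6.23 and 5.97 at E11.5, 6.15 and 6.12 at 8 days and 5.29 and 5.37 at 19 days. The 19-day arrays lay below the other 8, and the 8-day arrays lay among the fresh ones. It fell by 0.77 ± 0.13 against E11.5 (limma adjusted p = 0.00819) and by 0.80 ± 0.13 against 8 days (limma adjusted p = 0.0123), the first kept without each array in turn but lost with slide as a block (limma adjusted p = 0.133), the second lost without 8-day replicate 2 and without 19-day replicate 1. Atp5b, the catalytic beta subunit, read 4.43 and 4.16 at E11.5 and 3.73 and 3.74 at 19 days, a fall of 0.56 ± 0.13 (limma adjusted p = 0.0263). The other falls were in Atp5pb (0.87), which belongs to the peripheral stalk, in the gamma subunit Atp5c1 of the central stalk (0.62), in Atp5g2, one of 3 genes for the proton-carrying c ring (0.54), and in Atp5e, Atp5h and Atp5l (0.52, 0.50 and 0.28). The other c ring genes Atp5g1 and Atp5g3 were not called at 19 days. With quantile normalization Atp5l was at 0.10, the other way. Between 19 and 8 days, 50.9% of all genes tested gave a negative difference. All 15 tested genes of complex V did, from -0.80 to -0.04, and Atp5a1 alone was called. With quantile normalization that call was lost (limma adjusted p = 0.0828), and Atp5l was called higher instead, at 0.40 (limma adjusted p = 0.0078).

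**Figure D4:**
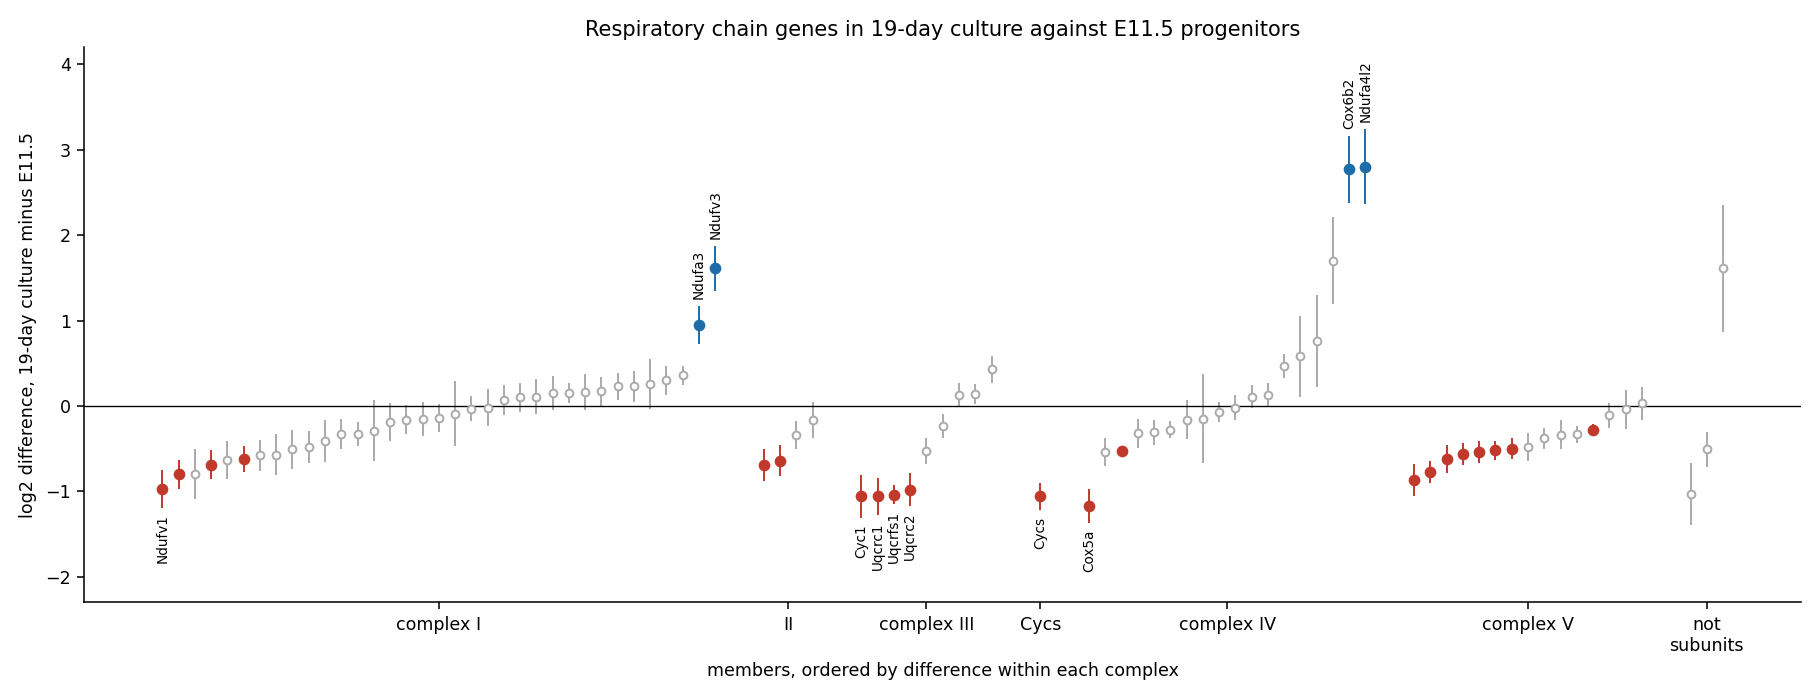
Each point is 1 tested member, as the log2 difference of 19-day culture minus E11.5 progenitors with its standard error, ordered by difference within each complex; filled red points were called lower, filled blue points higher, and open points did not pass an adjusted p of 0.05 in limma. Names are given for called members that differed by more than 0.9. Falls reach -1.17 (Cox5a), and the 4 rises run from 0.95 to 2.80.

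**Figure D5:**
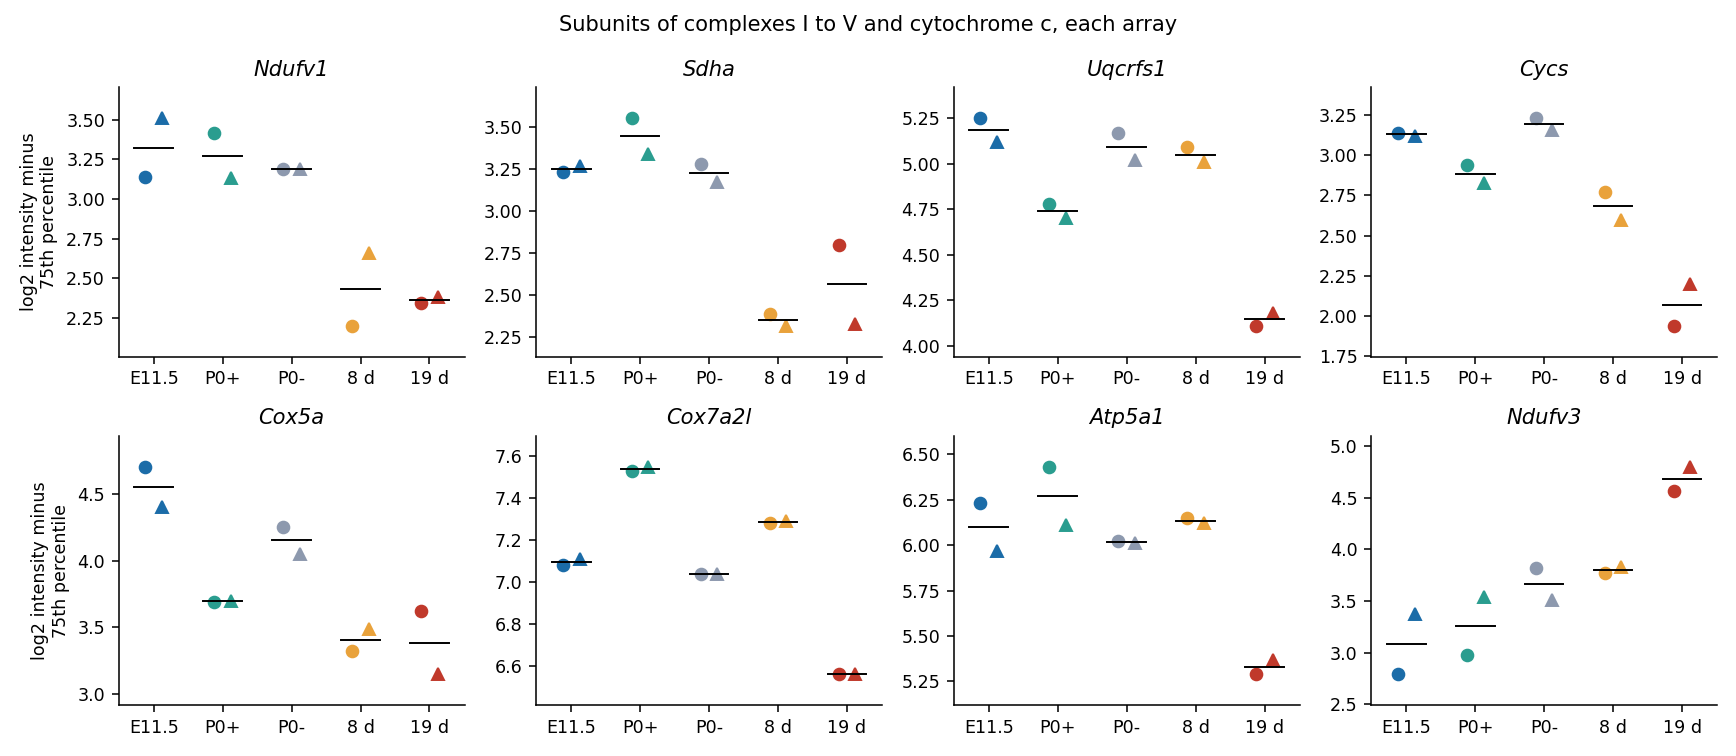
Values of 8 members on each array, as log2 intensity minus the 75th percentile, with circles for replicate 1, triangles for replicate 2 and a line at the group mean; groups are named as in the plot of isoforms. Uqcrfs1, Atp5a1 and Cox7a2l are lowest at 19 days and not at 8 days, whereas Cox5a and Sdha are already low at 8 days and Ndufv3 is highest at 19 days.

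Slide and culture time were partly confounded: all freshly sorted arrays and 8-day replicate 1 were on slide 1, and 8-day replicate 2 and both 19-day arrays on slide 2. Between the 2 slides of the 8-day pair the members' median difference was 0.01, and it was 0.13 over all genes. Within slide 2, the median difference of 19-day culture minus 8-day replicate 2 was -0.26 over members and -0.09 over all genes. With slide as a block, 7 members were called at 19 days against E11.5 (2 higher, 5 lower, with 5.66% of all genes called), and 6 of the 25 calls were kept: Ndufa4l2, Uqcrfs1, Uqcrc2, Cox7a2l, Atp5e and Ndufb8. At 8 days Ndufa4l2 alone of 4 was kept, and between 8 and 19 days 5 of 8 were, without Ndufb5, Ndufc2 and Uqcrh. Without E11.5 replicate 1 or 2 the members' median at 19 days against E11.5 was -0.20 and -0.33. Without 19-day replicate 1 or 2 it was -0.23 and -0.31, against -0.28 with all arrays. In each of these fits fewer members, and also a smaller share of all genes, were called than with all arrays. The 8 members called with each of these arrays left out in turn were Atp5a1, Cox5a, Cox6b2, Cox7a2l, Cycs, Ndufa4l2, Ndufv3 and Uqcrfs1. Of these 8, 5 lost their call with slide as a block, with limma adjusted p of 0.133 for Atp5a1, 0.0803 for Cox5a, 0.0558 for Cox6b2, 0.124 for Cycs and 0.12 for Ndufv3. Fitting the 4 arrays of these 2 groups alone left 3 calls, with 4.94% of all genes called.

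Time in culture was also compared directly. Between 8 and 19 days 8 members fell: Cox6a2, Uqcrfs1, Ndufb5, Atp5a1, Uqcrc2, Ndufc2, Cox7a2l and Uqcrh. Of these, 6 were also called lower at 19 days against E11.5, a comparison that shares the 19-day arrays. Ndufc2 read 5.88 and 5.79 at 8 days and 5.17 and 4.97 at 19 days, a fall of 0.76 ± 0.17 (limma adjusted p = 0.0328). Without 8-day replicate 1 or 2 the members' median was -0.26 and -0.16, and without 19-day replicate 1 or 2 it was -0.18 and -0.21. With all arrays it was -0.20, and in each of these fits fewer members and a smaller share of all genes were called. Cox7a2l and Uqcrfs1 were called in each of these 4 fits. The fit of these 4 arrays alone with limma called 0 of the 85 members and 0% of all genes, with 13 members at an unadjusted p under 0.05.

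At 8 days against E11.5 the 4 called members were Ndufa4l2, Cox6b2, Cox5a and Sdha, described above. The other core subunits gave differences that did not pass, such as -0.81 ± 0.25 for Cyc1 (limma adjusted p = 0.12). Without 8-day replicate 1 or 2 the members' median was -0.01 and -0.09, and without E11.5 replicate 1 or 2 it was 0.02 and -0.14. With all arrays it was -0.05. Fewer members were called without either 8-day array or without E11.5 replicate 1. A smaller share of all genes was called in each of the 4 fits, and Ndufa4l2 was called in all of them.

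Between P0 and E11.5 progenitors, 4 of the 5 called members were higher at P0. In the same samples 3 of 5 loop and distal tubule markers were called higher at P0 in limma. So were 1 of 7 proximal tubule, 1 of 5 collecting duct and 1 of 5 podocyte markers, and 0 of these lists were lower. Of 5 endothelial and 5 stroma markers, 0 were called. The part of such cells in the member differences was not tested. Cox5b, a nuclear subunit of complex IV, read 4.01 and 4.18 at E11.5 and 5.2 and 5.06 in P0 progenitors, with 5.08 and 4.98 in P0 non-progenitors and 4.41 to 4.71 in culture. It was 2.06-fold higher at P0 (1.04 ± 0.14, limma adjusted p = 0.0117). Cox4i1, the common isoform of the largest nuclear complex IV subunit, read 6.14 and 5.80 at E11.5 and 6.80 and 6.68 at P0 and was higher by 0.77 ± 0.12 (limma adjusted p = 0.0182). Ndufa5 of complex I was higher by 0.53 ± 0.11 (limma adjusted p = 0.0447) and Cox7a2l by 0.45. Atp5g1 fell by 0.70 ± 0.10 (limma adjusted p = 0.0159), but its second probe, also above background on all arrays, gave -0.04. No call was kept without P0 progenitor replicate 1 or without replicate 2, where limma called 0 members, with 11 at an unadjusted p under 0.05 in each. In those fits 0.457% and 0.45% of all genes were called in either direction.

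At birth, few members were called between progenitors and non-progenitors. The 4 called members were Ndufa4l2 and Cox7a1, lower in progenitors, and Cox7a2l and Atp5g2, higher in them by 0.50 and 0.55 ± 0.13 (limma adjusted p = 0.0386 for Atp5g2). Atp5g2 read 6.34 and 6.18 in progenitors and 5.79 and 5.63 in non-progenitors. None of the 35 tested genes of complex I, 4 of complex II or 9 of complex III was called, and 52 of all 85 members gave a negative difference. Over all genes tested, 43.2% gave a negative difference, and the median was 0.10. With quantile normalization 11 members (12.9%) were lower and none higher, against 4.27% of all genes and 3.49% of bright genes lower, among them Uqcrb, Ndufa5, Atp5b, Sdhd and Uqcrfs1 at -0.77 to -0.63, and the members' median was -0.32, against 0.08 over all genes. Without P0 non-progenitor replicate 1 or 2 the members' median was -0.05 and -0.15, and without either P0 progenitor array it was -0.09. With all arrays it was -0.08. In each of these 4 fits fewer members and a smaller share of all genes were called. Cox7a2l was called in all 4. In these samples 6 of 7 proximal tubule markers, 5 of 5 endothelial and 4 of 5 stroma markers were lower in progenitors, and their part was not tested.

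Genes that serve the chain but are not members were described by count from lists. Of 13 subunits encoded in mitochondrial DNA, 9 fell at 19 days against E11.5, with a median of -0.57 over the 13, beside -0.28 over nuclear members. Of all genes 9.59% were lower there, and of bright genes 19.7%, with a median of -0.22 over bright genes. ND1 read 7.72 and 7.88 at E11.5, 7.17 and 7.41 at 8 days and 6.79 and 6.90 at 19 days, and fell by 0.96 ± 0.11 at 19 days (limma adjusted p = 0.00155). COX3, ND3 and ND4L fell by 0.92, 0.92 and 0.63. At 8 days 3 of 13 fell (ND1, ND3 and ND4L), and ND3 alone was lower in P0 than in E11.5 progenitors. Between 8 and 19 days 2 were lower. In these comparisons, in that order, 2.04%, 1.92% and 5.4% of all genes were lower. The shares of bright genes were 3.76%, 4.2% and 11.7%. These counts depended on scaling. With quantile normalization 7 of 13 fell at 8 days, ND3 did not pass at P0 against E11.5, 6 of 13 were lower in P0 progenitors than in non-progenitors, and 3 were higher, none lower, at 19 than at 8 days. That scaling called 4.56%, 3.59%, 6.43% and 6.31% of all genes in these comparisons, in either direction. Under the same scaling 3 of 13 fell at 19 days (ND3, ND1 and COX3), ND5 and ND6 were higher, and the median was -0.12. Of all genes, 14.6% were called there in either direction.

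Of 77 mitochondrial ribosomal protein genes, 11 fell at 19 days against E11.5 (14.3%, against 9.59% of all genes and 19.7% of bright genes) and none rose, with the largest falls in Mrpl34, Mrpl55, Mrpl38 and Mrpl19 (1.82, 1.82, 1.66 and 1.61). The median over the 77 was -0.52, and -0.34 with quantile normalization, where 8 fell and 2 rose. Of 45 assembly factors, 5 fell (11.1%) and 1 rose, shares that also lie near the background. Sdhaf1, which helps insert the iron-sulfur clusters of complex II, was 5.81-fold lower (-2.54 ± 0.40, limma adjusted p = 0.00587). Of 13 citric acid cycle genes, Idh3g and the citrate synthase gene Cs fell by 0.94 and 0.84, neither of which passed with quantile normalization. Of 19 regulators of mitochondrial biogenesis, the coactivator gene Ppargc1a and the nuclear receptor gene Esrrg were lower at birth in progenitors than in non-progenitors (log2 -4.87 ± 0.49 and -3.52 ± 0.51, limma adjusted p = 0.00224 and 0.00801). At 19 days against E11.5, Ssbp1 and Mtif2 of this list fell by 0.82 and 0.58. Ppargc1a was also called lower there (log2 -2.14), with 1 array a group above background by any of its probes. Its means of -6.73 at 19 days and -4.59 at E11.5 lay below the dimmest signals well above background on those arrays. These were -4.77 and -4.71 at 19 days and -4.25 and -4.2 at E11.5, so the size of its fall is not measured. Mtif2 was also lower at 19 than at 8 days (-0.36) and in P0 than in E11.5 progenitors (-0.66). Esrrg was at least 2.26-fold lower at 19 than at 8 days (limma adjusted p = 0.00979). Esrrg was not well above background on either E11.5 array or either 19-day array. It was at least 4.83-fold higher in P0 than in E11.5 progenitors (limma adjusted p = 0.0105) and at least 1.58-fold higher at 8 days than at E11.5 (limma adjusted p = 0.0472), with the E11.5 values raised, array by array, to the dimmest signal that still stood well above background. Tubule markers were also higher in P0 than in E11.5 progenitors, and their part in the Esrrg difference was not tested.

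Members read by more than 1 probe gave a check within the arrays. In 28 members with at least 2 probes above background on all arrays, the probes had the same sign in 20 to 24 members, depending on the comparison, and the median range between probes of a gene was 0.15 to 0.24. Of the 3 names that are not subunits, none was called. Dmac2l was at least 2.91-fold higher in P0 than in E11.5 progenitors, where it was not well above background, and did not pass (limma adjusted p = 0.104).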

How the data were processed

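Intensities were measured in 10 samples, 1 array each. Per the file headers and the submitters' processing notes, Agilent Feature Extraction 11.5.1.1 made the deposited processed signal intensities, which are background-subtracted within each array and not normalized between arrays. Per the labels' protocols, sorting used a FACS Aria II and RNA came from RNeasy Plus Micro columns. In the file of P0 progenitors replicate 2, 62 gene names had become dates, so names were taken from an E11.5 file by probe.

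Control spots and flagged outlier spots were left out, log2 intensities were reduced by each array's 75th percentile, and a gene was read by its probe with the highest mean. Of the members' 128 probes, 117 were named through a RefSeq accession and 11 through a symbol. The model was fitted in R 4.3.3 with limma 3.58.1, after reading with data.table version 1.17.8: 1 mean per group over all 10 arrays, an intensity trend, 5 residual and 2.49 prior degrees of freedom, 2-sided, Benjamini-Hochberg adjustment over 26251 genes. Precision is limited by how few arrays there are. The procedure was tested on simulated data. Alternatives are given in the closing section.

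Members and lists were chosen with earlier results of these data known. Text names every called member (an extension, made after values were seen, of a rule that took the 12 largest differences in a direction), the 3 largest uncalled differences in each direction or a selection of them, a set of 12 core subunits and the isoform sets, and up to 4 called genes of each other list.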

Additional observations from a re-analysis of the deposited data

Results flagged for a closer look

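The effects of 8 and of 19 days of culture, each set against the same E11.5 arrays, differed in 8 members by the limma test of 19-day minus 8-day culture. The log2 differences were -2.34 in Cox6a2, -0.91 in Uqcrfs1, -0.89 in Ndufb5, -0.80 in Atp5a1, -0.79 in Uqcrc2, -0.76 in Ndufc2, -0.73 in Cox7a2l and -0.65 in Uqcrh. Cox6a2 was high at 8 days alone, in the samples with the highest mean of the muscle markers. Uqcrfs1, Atp5a1 and Uqcrc2 differed from E11.5 by -0.13, 0.03 and -0.19 at 8 days, and by -1.04, -0.77 and -0.98 at 19 days. The explanations were not tested.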

How the results depend on the processing

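With 2 arrays a group, counts of called members (limma, adjusted p of 0.05) changed with the processing, and with quantile normalization so did their split by direction. In the main fit the counts were 8 for 19-day against 8-day culture, 25 for 19-day culture, 4 for 8-day culture and 5 for P0 progenitors against E11.5 progenitors, and 4 for P0 progenitors against P0 non-progenitors. The shares of all genes called were 8.07%, 16.8%, 4.8%, 3.95% and 8.38%. In that order, fitting only the arrays compared gave 0, 3, 0 and 1 in the first 4 (with 13, 34, 14 and 15 at an unadjusted p under 0.05). Of all genes, 0%, 4.94%, 0% and 1.65% were called there. A fit with no intensity trend gave 0, 8, 1, 0 and 1 (14, 32, 16, 11 and 4 unadjusted). It called 2.9%, 12.8%, 2.06%, 1.7% and 4.82% of all genes. Quantile normalization gave 5, 16 and 11 in the first, second and last (6.31%, 14.6% and 6.43% of all genes). Its medians there were -0.05, -0.05 and -0.32, with 0.25 for P0 against E11.5 progenitors. Its 5 calls were 1 higher and 4 lower, its 16 were 9 higher and 7 lower, and its 11 were all lower. It turned Atp5l at 19 days against E11.5 to 0.10, and called it higher at 19 than at 8 days (0.40, adjusted p = 0.0078); the cause was not tested. With normexp background correction the last count was 1 (8.64% of all genes), and the first 2 medians were -0.14 and -0.21. Slide as a block gave 5, 7 and 2 in the first 3 (6.49%, 5.66% and 2.4% of all genes), with a first median of -0.26. The arrays of slide 2 alone, chosen after seeing the data, gave 0 (9 unadjusted) and -0.26 in the first. The mean of a gene's probes gave a second median of -0.19 and 3 calls for P0 against E11.5 progenitors (3.48% of all genes). No filter on dim probes left 2 calls in the last (5.68% of all genes). Leaving out each array in turn gave 2 to 5, 11 to 17, 2 to 5, 0 to 6 and 1 to 2 calls and medians of -0.26 to -0.16, -0.33 to -0.20, -0.14 to 0.02, 0.02 to 0.14 and -0.15 to -0.05. In each of these left-out fits a smaller share of all genes was called than with all arrays. The replicate block gave 7, 24, 4, 4 and 4 (7.25%, 15.9%, 3.98%, 2.99% and 7.5% of all genes). Samples with the same replicate number shared no shift over genes: correlations of replicate differences between groups ran from -0.01 to 0.03, with 0 of 10 above 0.1. These correlations cannot tell whether such samples were collected together, which the labels do not say. Signal over background limits Cox8b, Dmac2l, Esrrg and, at E11.5 and 19 days, Ppargc1a.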
